A study of Homo sapiens with 9 samples.

Results

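The p97 ATPase, the adaptors that bring it substrates, and the ubiquilins were followed through heat stress and recovery in HEK293T, a human embryonic kidney line. The set held 10 genes of the 60664 in the count table: VCP, which encodes p97 itself, the 7 adaptor genes UFD1, NPLOC4, NSFL1C, FAF1, FAF2, PLAA and YOD1, and the ubiquilin genes UBQLN1 and UBQLN2. They were chosen by name and not by a measured value, although earlier results of these data were known. RNA-seq was available for 9 libraries, all of HEK293T cells grown at 37°C. NC cells (n = 2 libraries) were untreated wild-type cells, H1 cells (n = 2) had spent 1 h at 43°C in a water bath, and H1R1 (n = 2), H1R6 (n = 2) and H1R18 (n = 1) had the same heat followed by 1, 6 or 18 h back at 37°C. Separate cultures for libraries of 1 condition are not stated in the labels, so p-values measure only the spread between these libraries, which may be technical. H1R18 was taken to vary like the other conditions, and its differences rest on 1 library.

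p97 is a hexameric AAA+ ATPase that pulls ubiquitin-tagged proteins out of membranes, complexes and chromatin and unfolds them, so that the proteasome can degrade them. The UFD1-NPLOC4 heterodimer and proteins with a UBX domain tie it to its substrates, and the deubiquitinase YOD1 and the ubiquitin-binding PLAA act on substrates or their ubiquitin chains at p97. Ubiquilins carry clients to the proteasome with a ubiquitin-like domain at one end and a ubiquitin-binding domain at the other. Heat unfolds many proteins at once, and ubiquitin conjugates that build up under it are known substrates of this machinery.

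Libraries held 3814195 to 6221613 counts, with 188 to 2363 counts on any one of the genes, and all 10 were among the 21139 genes tested. Levels are given as CPM, the counts relative to library size, scaled by TMM factors for library composition. Comparisons between genes use RPKM, the same values per kb of merged exon length. A gene was called changed where the adjusted p of edgeR's quasi-likelihood test (Benjamini-Hochberg, over all genes tested) was under 0.05, and SE is the standard error of a log2 fold change. Of 8 markers of the cell line, 7 were at 1 CPM or more in every library. Markers of hepatocytes (0 of 5 at that level in every library, with TTR and FGB at 0) and blood (0 of 3, with HBB at 0) were low, with summed levels of 0 to 1.41 and 0 to 1.34 CPM. Of 4 fibroblast markers, 1 was at that level, COL1A1 at 44.0 to 64.2 CPM, and the 4 summed to 44.3 to 64.6 CPM. The 6 known heat-induced genes used as a check were all higher at H1 and at H1R1, by a median of 2.41 and 2.89 on the log2 scale, 5 of them were higher at H1R6, and 2 were higher and 1 lower at H1R18. In bulk RNA, fewer cells expressing a gene and less RNA per cell cannot be told apart.

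After 1 h of heat, 1 of the 10 genes was called changed: VCP was higher, where 3.43% of all genes tested were higher and 1.77% lower. One hour into recovery 6 genes were higher and none lower (VCP, UFD1, NPLOC4, FAF2, YOD1 and UBQLN1), where 10.7% of all genes were higher and 9.53% lower. At H1R6, 3 were higher (NPLOC4, PLAA and YOD1) and none lower, beside 3% of all genes higher and 4.03% lower. At H1R18, YOD1 was higher, where 4.58% of all genes were, and VCP and FAF2 were lower, where 6.43% were. These genes are well expressed, and calls are more frequent among such genes. Of the 5625 tested genes whose log2 CPM averaged 5.5 or more, as it did for all 10 genes, 5.72% (H1), 24.6% (H1R1), 7.72% (H1R6) and 9.35% (H1R18) were higher, and 2.93%, 12.5%, 10.5% and 15.7% were lower. At unadjusted p under 0.05, 2 genes were higher and 1 lower at H1 (9.66% and 7.59% of all genes tested), 8 higher at H1R1 (16.3%), 5 higher at H1R6 (9.01%), and 3 higher and 3 lower at H1R18 (10.6% and 13.6%). Single libraries mattered: the count of 1 at H1 became 0 without H1 replicate 2, the 6 at H1R1 became 3 without NC replicate 1 or H1R1 replicate 1, and the 3 at H1R6 became 1 without H1R6 replicate 2. The 4 comparisons share the NC libraries, so they are not independent of each other.

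At H1R1 the log2 fold changes of the 10 genes ran from -0.03 (UBQLN2) to 0.48 (UFD1), with a median of 0.31 beside -0.01 for all genes tested. Both H1R1 libraries were above both NC libraries for 9 of the 10 genes, an arrangement that 28.6% of all genes tested showed. That share was not computed for the 5625 genes at the same level, where calls are more frequent. The median was -0.02 at H1, 0.16 at H1R6 and 0.07 at H1R18, where the medians of all genes were -0.01, -0.01 and -0.03. Over the 4 comparisons with NC, 7 genes were called at least 1 time, as were 30.2% of all genes tested and 56.6% of the 5625 genes at the same level. NSFL1C, FAF1 and UBQLN2 were called in none, and VCP and FAF2 were called in both directions at different times.

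**Figure D1:**
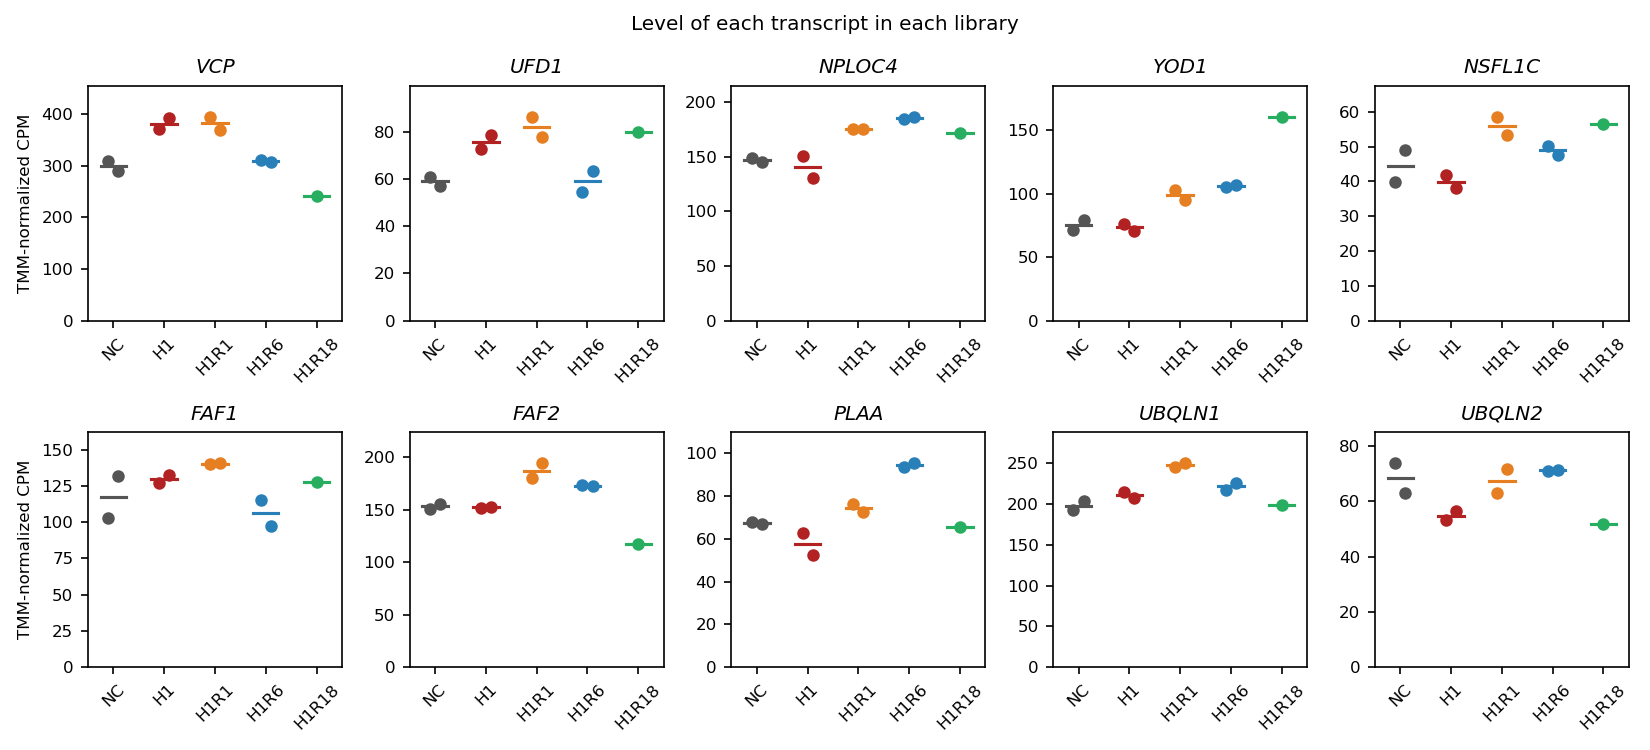
TMM-normalised CPM (vertical axes, from 0, a separate scale per gene) of each of the 10 transcripts in each library (dots) by condition (horizontal axes), with the condition mean as a line. VCP is highest at H1 and H1R1 and lowest in the single H1R18 library, at 240.2 CPM, whereas YOD1 is highest there, at 161 CPM.

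**Figure D2:**
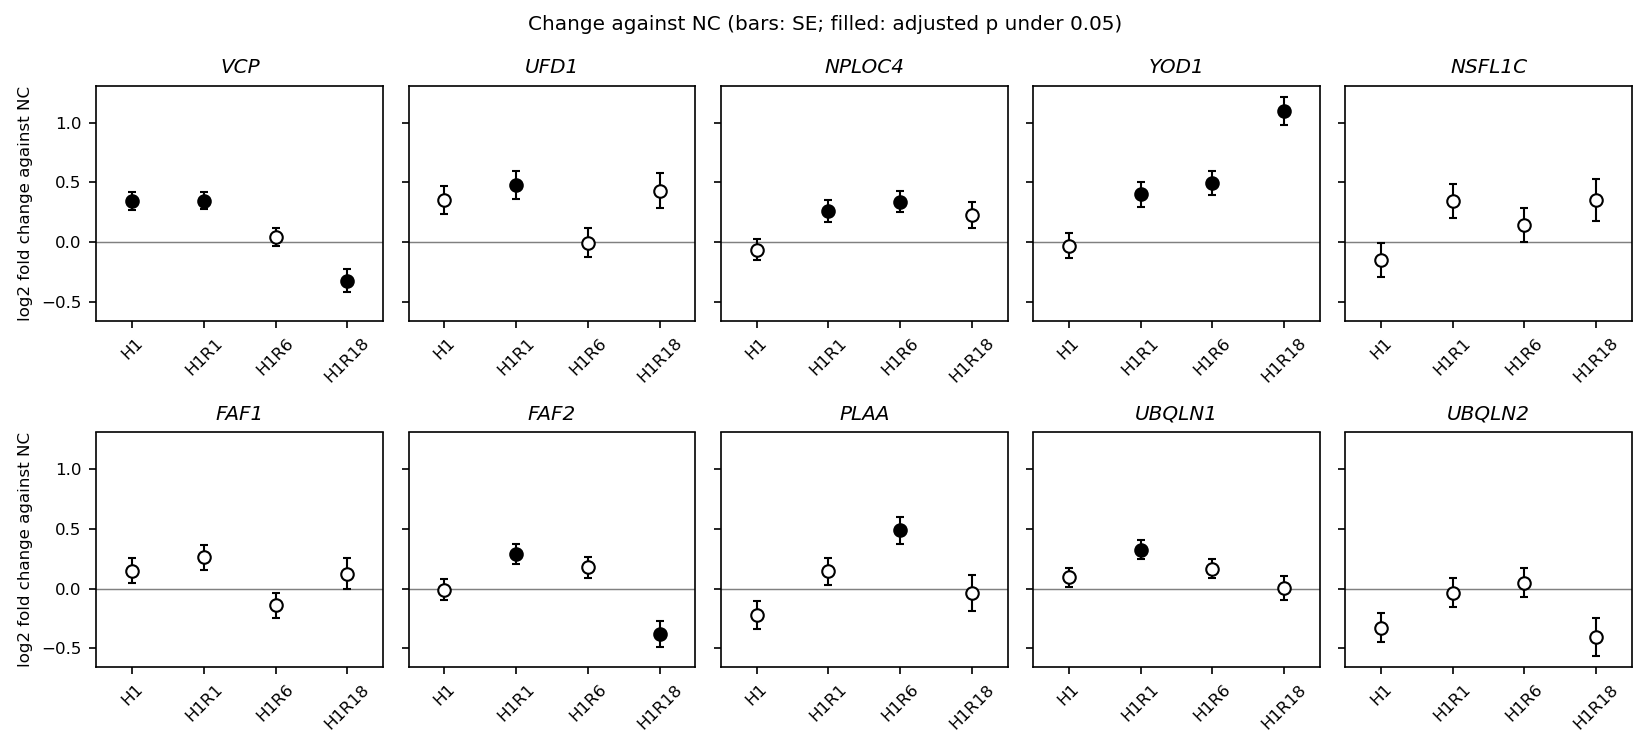
Log2 fold change against NC (vertical axes, shared) at each time (horizontal axes) for each gene, with SE as bars. Filled points passed the test, 6 of 10 at H1R1 and 3 of 10 at H1R18, and the farthest point from 0 is YOD1 at H1R18, at 1.10.

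Promoter sequences were examined because 6 of the genes were higher together at H1R1. RefSeq promoter windows on GRCh38.p14, 250 bases before to 50 after an annotated start, were found for 9 of the 10 genes (10 windows, 2 of them for NPLOC4), and UFD1 had none. Each window was searched on both strands for the heat shock element, the binding motif of HSF1, in its 3-unit form GAANNTTCNNGAA and its 2-unit forms GAANNTTC and TTCNNGAA, which the 3-unit form contains. The CCAAT box (CCAAT), the core of the antioxidant response element (TGACNNNGC) and the ER stress element (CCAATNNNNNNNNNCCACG, which contains a CCAAT box) were searched too. No window held the 3-unit heat shock element, which 0.49% of 35116 promoters held. The 4 windows printed here are the ones with a 2-unit heat shock element, plus VCP for its CCAAT boxes. Capitals mark 2-unit heat shock elements and CCAAT boxes (ATTGG where the box is on the other strand). VCP is at chr9:35072576-35072875 (minus strand), FAF1 at chr1:50960218-50960517 (minus), FAF2 at chr5:176448135-176448434 (plus) and YOD1 at chr1:207051159-207051458 (minus).
VCP: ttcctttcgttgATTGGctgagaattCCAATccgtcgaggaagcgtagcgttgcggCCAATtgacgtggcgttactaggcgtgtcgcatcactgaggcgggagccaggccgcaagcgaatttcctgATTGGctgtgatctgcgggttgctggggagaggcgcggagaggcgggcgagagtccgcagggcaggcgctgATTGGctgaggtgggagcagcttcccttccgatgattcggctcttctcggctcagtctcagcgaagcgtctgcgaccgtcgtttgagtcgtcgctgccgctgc
FAF1: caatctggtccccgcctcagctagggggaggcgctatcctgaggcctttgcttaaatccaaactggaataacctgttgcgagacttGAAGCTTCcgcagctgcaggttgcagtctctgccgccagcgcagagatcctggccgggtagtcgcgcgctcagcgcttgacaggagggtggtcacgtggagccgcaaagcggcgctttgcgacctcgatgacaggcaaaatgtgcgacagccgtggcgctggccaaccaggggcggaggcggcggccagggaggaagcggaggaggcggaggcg
FAF2: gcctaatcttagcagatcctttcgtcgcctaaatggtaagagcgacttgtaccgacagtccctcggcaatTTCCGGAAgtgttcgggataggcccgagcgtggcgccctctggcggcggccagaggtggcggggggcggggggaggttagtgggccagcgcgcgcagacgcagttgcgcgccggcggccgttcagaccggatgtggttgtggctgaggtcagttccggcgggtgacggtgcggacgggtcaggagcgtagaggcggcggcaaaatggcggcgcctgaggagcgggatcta
YOD1: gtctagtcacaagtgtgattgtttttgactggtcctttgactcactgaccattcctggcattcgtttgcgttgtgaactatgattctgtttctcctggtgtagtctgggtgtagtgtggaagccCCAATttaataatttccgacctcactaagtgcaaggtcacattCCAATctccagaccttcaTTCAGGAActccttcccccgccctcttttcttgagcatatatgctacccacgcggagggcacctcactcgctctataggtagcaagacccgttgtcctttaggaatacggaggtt

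The VCP window held 5 CCAAT boxes, at 238, 224, 194, 124 and 53 bases before the start. At least 5 boxes were found in 0.359% of all promoters, and at least 1 in 34.6%. YOD1 held 2, at 126 and 83 bases before the start (at least 2 were in 10.8% of promoters), and 1 of the NPLOC4 windows held 1. GAANNTTC occurred in FAF1, 164 bases before the start (6.77% of all promoters held it), and TTCNNGAA in FAF2 and YOD1, 180 and 65 bases before the start (7.74%). TGACNNNGC (13.3% of promoters) was in the windows of VCP, FAF2, PLAA, YOD1, UBQLN1 and UBQLN2, and the ER stress element (0.0769%) in none. The windows of NPLOC4 lie 71032 and 81863 bases inside the outer start of the gene in the count table, that of NSFL1C 6993, that of YOD1 1772 and that of FAF2 757, so for these genes the window is not that of the outermost start. A match is a run of letters, and binding was not measured.

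VCP lies on the minus strand of chromosome 9 (GRCh38 35053928 to 35072668) with 16 exon blocks. Its transcripts stood at 309.6 and 290.2 CPM in NC, at 370.4 and 392 CPM after heat, and at 395 and 368 CPM at H1R1. By H1R6 the libraries held 312 and 308 CPM, and the H1R18 library held 240.2 CPM. Both H1 and both H1R1 libraries were above NC, the H1R6 libraries overlapped NC, and H1R18 was below every other library. VCP was higher by 0.35 on the log2 scale at H1 (SE 0.07, adjusted p = 0.0031, 1.27-fold) and by 0.35 at H1R1 (SE 0.07, adjusted p = 0.000869). Against H1R1 it fell at H1R6 by 0.30 (SE 0.07, adjusted p = 0.00413), and at H1R18 it was lower than at H1R6 (log2 fold change -0.37, adjusted p = 0.00734) and than in NC (-0.32, SE 0.09, adjusted p = 0.0234, 0.80-fold). The call at H1 needed H1 replicate 2 (adjusted p = 0.0804 without it), and the H1R18 call against NC was lost without NC replicate 1 (adjusted p = 0.126) or H1 replicate 2 (0.0521), or with the compared conditions alone (0.115). The fall at H1R6 was lost without H1R1 replicate 1 (adjusted p = 0.074) or H1R6 replicate 2 (0.06). The calls at H1R1 and of H1R18 against H1R6 held in every alternative tried, though none could leave out the single H1R18 library.

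UFD1 and NPLOC4 encode the 2 partners of the main substrate-recruiting adaptor, which binds ubiquitin chains. UFD1 (chromosome 22, 19449911 to 19479202, minus strand) stood at 61.0 and 57.1 CPM in NC, at 72.7 and 78.6 CPM after heat and at 86.5 and 77.8 CPM at H1R1. It was back at 54.8 and 63.3 CPM at H1R6 and stood at 79.8 CPM in the H1R18 library. The H1, H1R1 and H1R18 libraries were all above NC, and those of H1R6 spanned NC. UFD1 was higher at H1R1 by 0.48 (SE 0.12, adjusted p = 0.00367) and fell by 0.48 to H1R6 (SE 0.11, adjusted p = 0.00362). Its difference from NC did not pass at H1 (0.35, SE 0.12, adjusted p = 0.0778) or at H1R18 (0.43, SE 0.15, adjusted p = 0.0552). The H1R18 difference passed in 7 of 17 alternatives, among them RLE, upper-quartile and library-size scaling (adjusted p = 0.0384 to 0.0409), and without H1R6 replicate 1 (0.0469) or 2 (0.0479). From H1R6 to H1R18 UFD1 was higher by 0.43 (SE 0.14, adjusted p = 0.041), a call lost in 6 of 17 alternatives: without either H1 library (adjusted p = 0.0569 and 0.0567) or H1R6 replicate 1 (0.218), with the replicate number as a block (0.0544), with DESeq2 (0.0995) and with no filter on low counts (0.113). The H1R1 calls were lost without H1R1 replicate 1 (adjusted p = 0.0764 against NC and 0.0812 for the fall to H1R6) and, for the fall, without H1R6 replicate 1 (0.113). Exons of UFD1 overlap UFD1-AS1 on the other strand over 195 bases, and UFD1-AS1 itself, at 1.63 to 10.3 CPM, was higher at H1 (log2 fold change 1.95, adjusted p = 0.00282) and at H1R1 (1.32, adjusted p = 0.0282). Strand was not used in the counting, and reads that fell on exons of both genes were counted for neither. Whether UFD1-AS1 had a part in the UFD1 values was not tested.

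NPLOC4 (chromosome 17, 81556887 to 81648465, minus strand) is the gene of the other partner. Its libraries held 148 and 145 CPM in NC, 150.3 and 130.3 CPM after heat, 175 and 176 CPM at H1R1, 184 and 186 CPM at H1R6, and 172 CPM at H1R18. H1 overlapped NC, and every recovery library was above both. NPLOC4 was higher at H1R1 by 0.26 (SE 0.09, adjusted p = 0.0347) and at H1R6 by 0.34 (SE 0.09, adjusted p = 0.0136), and its difference at H1R18 did not pass (0.23, SE 0.11, adjusted p = 0.189). It rose from H1 to H1R1 by 0.32 (SE 0.09, adjusted p = 0.0133), whereas the H1 difference from NC was -0.06 (95% interval -0.24 to 0.12). The H1R1 call against NC was lost in 9 of 18 alternatives, among them the removal of either NC library (adjusted p = 0.0782 and 0.113) or either H1R1 library (0.123 and 0.0923), DESeq2 (0.0817) and upper-quartile or library-size scaling (0.0658 and 0.117). The H1R6 call was lost without NC replicate 2 (adjusted p = 0.0592) or either H1R6 library (0.0586 and 0.0994), and the rise from H1 without H1 replicate 2 (0.303) or H1R1 replicate 1 (0.0812).

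NSFL1C, FAF1 and FAF2 encode UBX-domain adaptors. NSFL1C encodes p47, which works with p97 in membrane fusion at the Golgi and the ER. NSFL1C (chromosome 20, 1442162 to 1473842, minus strand) held 40.0 and 49.1 CPM in NC, 41.7 and 38.15 CPM after heat, 58.6 and 53.2 CPM at H1R1, 50.2 and 47.6 CPM at H1R6 and 56.5 CPM at H1R18. The H1 libraries overlapped NC, and the H1R1 libraries lay above both. From H1 to H1R1 NSFL1C rose by 0.49 (SE 0.14, adjusted p = 0.0179), but against NC the H1R1 difference did not pass (0.34, SE 0.14, adjusted p = 0.0862), and it passed without NC replicate 2 (0.50, adjusted p = 0.0433). The rise was lost without either H1 library (adjusted p = 0.0675 and 0.2), without H1R1 replicate 1 (0.187) and with DESeq2 (0.064). It was the least counted of the genes, and 492 of its exon bases lie on the same strand as exons of SIRPB2, which held 2 counts in all libraries together.

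FAF1 encodes an adaptor that bridges p97 and ubiquitinated proteins. FAF1 (chromosome 1, 50437028 to 50960267, minus strand) held 103 and 132 CPM in NC, 127 and 133 CPM after heat, 140.0 and 141 CPM at H1R1, 116 and 97.2 CPM at H1R6 and 128 CPM at H1R18. The NC libraries were farther apart than those of any other condition, and the H1R1 libraries were above both. Against NC no difference passed (0.26 at H1R1, SE 0.11, adjusted p = 0.0797). Without NC replicate 2 the H1R1 difference was 0.45 and passed (adjusted p = 0.00738). FAF1 fell from H1R1 to H1R6 by 0.40 (SE 0.10, adjusted p = 0.00742), a call lost without H1R6 replicate 2 (-0.27, adjusted p = 0.203).

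FAF2 encodes an adaptor anchored in the ER membrane and on lipid droplets. FAF2 (chromosome 5, 176447628 to 176510074, plus strand) held 151 and 156 CPM in NC, 152 and 153 CPM after heat, 180.1 and 195 CPM at H1R1, 174 and 172 CPM at H1R6, and 118 CPM at H1R18. H1 lay within the NC range, H1R1 and H1R6 above it and H1R18 below every other library. FAF2 was higher at H1R1 by 0.29 (SE 0.09, adjusted p = 0.0147) and lower at H1R18 (log2 fold change -0.38, SE 0.11, adjusted p = 0.0228), and from H1R6 to H1R18 it fell by 0.56 (SE 0.11, adjusted p = 0.000604, 0.68-fold). The increase from H1 to H1R1 was 0.30 (SE 0.08, adjusted p = 0.0181). The H1R1 call against NC was lost without NC replicate 1 (adjusted p = 0.0713), without H1R1 replicate 2 (0.111) and with library-size scaling (0.0578). The H1R18 call against NC was lost without NC replicate 2 (0.0703), with DESeq2 (0.0693) and with the compared conditions alone (0.0935). The increase from H1 was lost without either H1 library, without H1R1 replicate 2 and with library-size scaling (0.052). The fall to H1R18 held in every alternative tried, though none could leave out the single H1R18 library.

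PLAA encodes a ubiquitin-binding cofactor that acts with p97 and YOD1 in the clearance of damaged lysosomes. PLAA (chromosome 9, 26903372 to 26947242, minus strand) held 67.7 and 67.1 CPM in NC, 62.9 and 52.6 CPM after heat, 76.4 and 72.4 CPM at H1R1, 93.6 and 95.4 CPM at H1R6, and 65.7 CPM at H1R18. Every H1R6 library was above every other library, and H1 and H1R18 were below NC. PLAA was higher at H1R6 by 0.49 (SE 0.11, adjusted p = 0.00501, 1.40-fold). It rose from H1 to H1R1 by 0.37 (SE 0.11, adjusted p = 0.0325) and from H1R1 to H1R6 by 0.34 (SE 0.11, adjusted p = 0.0298), then fell to H1R18 by 0.52 (SE 0.14, adjusted p = 0.0118). The H1R6 call against NC and the fall to H1R18 were each lost without H1R6 replicate 2 (adjusted p = 0.0557 and 0.0585). The rise from H1 was lost without H1 replicate 2 (0.407) or either H1R1 library (0.211 and 0.0593), with upper-quartile or library-size scaling (0.051 and 0.0704) and with no filter on low counts (0.0642), and the rise from H1R1 to H1R6 without either H1R1 library (0.0878 and 0.143) or either H1R6 library (0.104 and 0.13). DESeq2 called neither rise (0.104 and 0.0991).

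YOD1 encodes a deubiquitinase of the OTU family that trims ubiquitin chains at p97. YOD1 held 71.6 and 79.1 CPM in NC, 76.1 and 70.8 CPM after heat, 103 and 95.2 CPM at H1R1, and 105 and 106 CPM at H1R6. In the H1R18 library it stood at 161 CPM, above every other library. H1 overlapped NC, and all 5 recovery libraries were above both. The differences from NC were -0.03 at H1 (95% interval -0.25 to 0.18), 0.40 at H1R1 (SE 0.10, adjusted p = 0.00513), 0.49 at H1R6 (SE 0.10, adjusted p = 0.00166) and 1.10 at H1R18 (SE 0.12, adjusted p = 9.97e-08, 2.14-fold), the last being the largest difference from NC among the 10 genes. YOD1 rose from H1 to H1R1 by 0.43 (SE 0.10, adjusted p = 0.004) and from H1R6 to H1R18 by 0.60 (SE 0.12, adjusted p = 0.000477). The calls at H1R6 and H1R18 held in every alternative tried, with log2 fold changes against NC of 0.44 to 0.58 and 1.04 to 1.18. For H1R18 no alternative could leave out its single library. The H1R1 call against NC was lost without NC replicate 1 (adjusted p = 0.0739) or H1R1 replicate 1 (0.0779), and the rise from H1 without H1 replicate 2 (0.103) or H1R1 replicate 1 (0.0832). The gene (chromosome 1, 207043849 to 207052980, minus strand) lies opposite PFKFB2, with which it shares 315 exon bases. PFKFB2 was at 22.1 to 49.4 CPM, with log2 fold changes of -0.94 at H1R1 (adjusted p = 0.000114), 0.03 at H1R6 (adjusted p = 0.946) and 0.12 at H1R18 (adjusted p = 0.773).

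UBQLN1 and UBQLN2 encode ubiquilins. Another ubiquilin gene, UBQLN4, stood at 19.2 RPKM in NC and is counted with the related lists below. UBQLN1 (chromosome 9, 83659968 to 83707958, minus strand) held 192 and 204 CPM in NC, 215 and 208 CPM after heat, 246 and 250.4 CPM at H1R1, 218 and 226 CPM at H1R6, and 199 CPM at H1R18. The H1R1 libraries were above all others, and H1R18 lay within the NC range. UBQLN1 was higher at H1R1 by 0.33 (SE 0.08, adjusted p = 0.00329), a call that held in every alternative tried. Its increase from H1 to H1R1 (0.23, SE 0.08, adjusted p = 0.05) lay just outside the threshold, and it passed in 6 of 18 alternatives, among them the removal of either NC library (0.0355 and 0.0361). At H1R6 the difference was 0.17 (SE 0.08, adjusted p = 0.242) and at H1R18 0.00 (95% interval -0.20 to 0.21).

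UBQLN2 is a single-exon gene on chromosome X (56563627 to 56567868, plus strand), mutations of which are known in familial amyotrophic lateral sclerosis. Its libraries held 73.8 and 63.2 CPM in NC, 53.1 and 56.5 CPM after heat, 63.2 and 71.7 CPM at H1R1, 71.0 and 71.3 CPM at H1R6, and 51.8 CPM at H1R18. H1 and H1R18 lay below NC, and H1R1 and H1R6 overlapped it. No difference from NC passed: it was -0.33 at H1 (SE 0.12, adjusted p = 0.131), -0.03 at H1R1 (95% interval -0.28 to 0.21), 0.05 at H1R6 and -0.41 at H1R18 (SE 0.16, adjusted p = 0.0994). From H1R6 to H1R18 UBQLN2 fell by 0.46 (SE 0.16, adjusted p = 0.0486). That call was lost in 8 of 17 alternatives: without either H1 library (adjusted p = 0.0622 and 0.0652), without either H1R6 library (0.109 and 0.125), with RLE or upper-quartile scaling (0.0536 and 0.0584), with DESeq2 (0.128) and with the replicate number as a block (0.0736). None of its 50-base stretches occurred in another annotated gene, and of those of UBQLN1 0.937% did, in a gene other than UBQLN2.

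The successive comparisons place these changes in time. From H1 to H1R1, 5 genes rose and none fell (NPLOC4, NSFL1C, FAF2, PLAA and YOD1), where 6.35% of all genes tested were higher and 5.08% lower (17.1% and 8.21% of the 5625 genes at the same level as these). All 10 log2 fold changes were above 0, from 0.00 for VCP to 0.49 for NSFL1C, where the median of all genes tested was -0.02. The share of genes above 0 was not computed, neither for all genes tested nor for the 5625 at the same level. The value of VCP was below 0 in 10 of 18 alternatives. The count of 5 genes that rose depended on the libraries. It was 0 without H1 replicate 2, 1 without H1R1 replicate 1 and 3 without H1 replicate 1 or H1R1 replicate 2. With either NC library left out it was 6. From H1R1 to H1R6, PLAA rose (6.43% of all genes were higher) and VCP, UFD1 and FAF1 fell (8.93% were lower), beside 7.95% and 22.1% of the 5625 genes. Without H1R1 replicate 1 or H1R6 replicate 2 the 4 calls became 1, and without H1R6 replicate 1 they became 2. From H1R6 to H1R18, UFD1 and YOD1 rose (6.28% of all genes were higher) and VCP, FAF2, PLAA and UBQLN2 fell (7.65% were lower), beside 12.7% and 18.2% of the 5625 genes. The highest mean was at H1R1 for 5 genes (VCP, UFD1, FAF1, FAF2 and UBQLN1), at H1R6 for 3 (NPLOC4, PLAA and UBQLN2) and at H1R18 for 2 (YOD1 and NSFL1C). The ratio of the highest to the lowest condition mean ran from 1.25 for UBQLN1 to 2.19 for YOD1.

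Per length, VCP and UBQLN1 were the most abundant of the 10 in NC, at 29.9 and 28.9 RPKM, and their libraries overlapped. FAF2 followed at 25.9 RPKM. UBQLN2, FAF1 and NPLOC4, at 16.1, 15.6 and 15.4 RPKM, could not be ordered beyond the spread between libraries. PLAA stood at 12.7 and YOD1 at 11.3 RPKM, and NSFL1C and UFD1 closed the order at 7.73 and 6.77 RPKM, with overlapping libraries. VCP was first at H1 and H1R1, at 38.0 RPKM in each, and UBQLN1 was first at H1R6 (32.4 RPKM) and in the H1R18 library (28.9 RPKM). YOD1 moved from rank 8 in NC to rank 2 at H1R18, at 24.1 RPKM beside 23.9 RPKM for VCP. Merged exon length can differ from the length of the isoforms these cells use, and transcript isoforms were not measured.

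**Figure D3:**
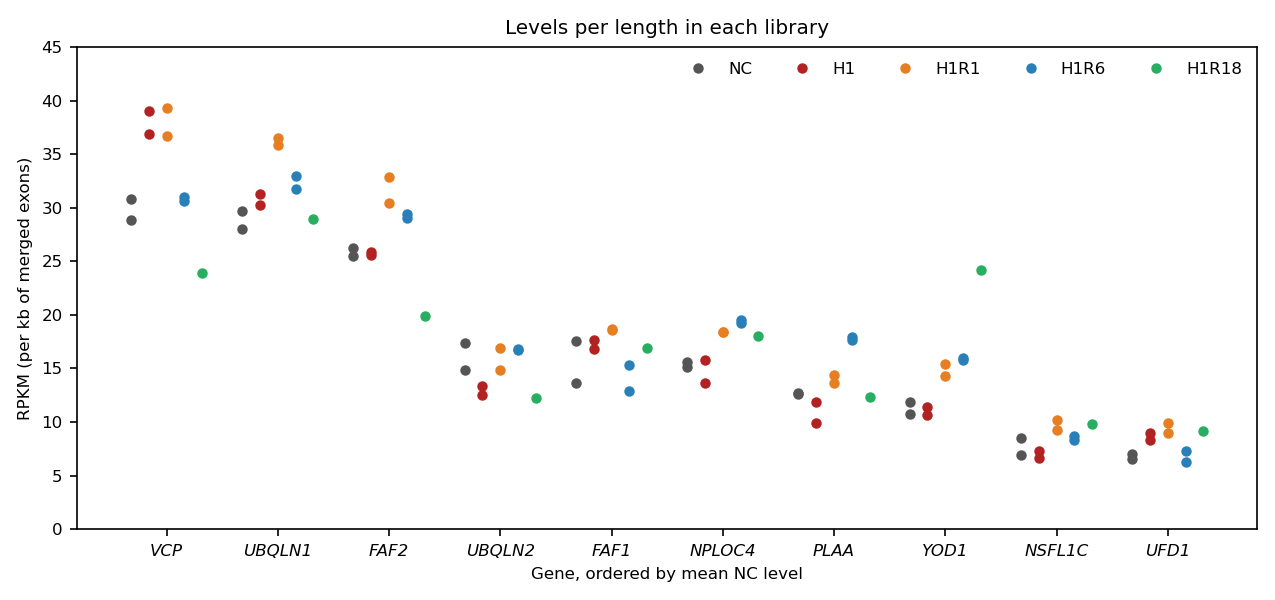
RPKM (vertical axis, per kb of merged exons) of each gene in each library (dots, coloured by condition), with genes ordered by their mean in NC (horizontal axis). VCP, UBQLN1 and FAF2 lie above the other 7 genes in NC, and the H1R18 dot of YOD1, at 24.1 RPKM, stands among them.

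Ratios of transcripts whose products act together were computed per length in each library, as a description with no test. UFD1 per NPLOC4 was 0.432 and 0.449 in NC, 0.529 and 0.659 after heat, and 0.485 and 0.540 at H1R1. The H1R6 libraries gave 0.326 and 0.371, and the H1R18 library 0.508. Every H1 and H1R1 library was above NC and both H1R6 libraries were below. The 7 adaptors summed per VCP gave 2.99 to 3.41 in NC, 2.39 to 2.63 at H1, 2.98 to 3.16 at H1R1, 3.62 in both H1R6 libraries and 4.61 at H1R18. VCP held 16.8% to 18.3% of the summed RPKM of the 10 genes in NC, 20.8% to 22.2% at H1 and 13.6% at H1R18. UBQLN2 per UBQLN1 was 0.501 to 0.621 in NC. It lay below that range at H1 (0.400 to 0.441), at H1R1 (0.415 to 0.464) and in the H1R18 library (0.422), and within it at H1R6 (0.509 to 0.528). The summed RPKM of the 10 genes was 168 to 172 in NC, 176 to 178 at H1, 206 to 207 at H1R1, 191 to 192 at H1R6 and 175 at H1R18, and 0.121% to 0.147% of all counts in a library fell on them. RNA ratios do not give protein ratios, which were not measured here.

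**Figure D4:**
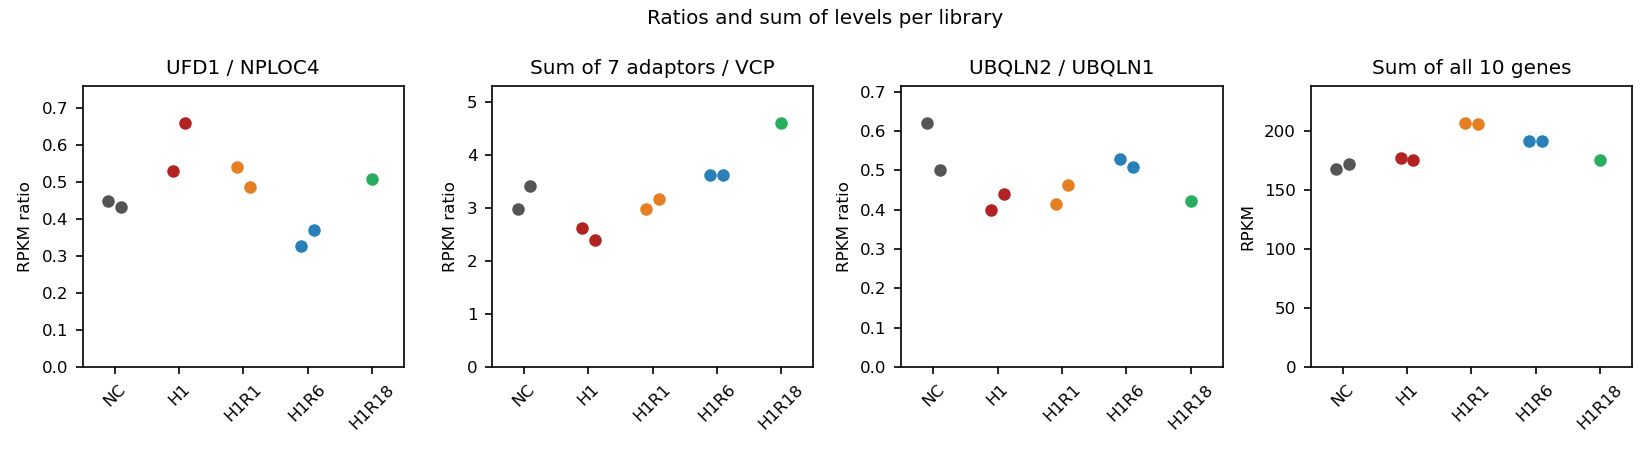
RPKM ratios of UFD1 to NPLOC4, of the 7 summed adaptors to VCP and of UBQLN2 to UBQLN1, and the summed RPKM of all 10 genes (vertical axes, from 0), in each library (dots) by condition (horizontal axes). The adaptor sum per VCP is lowest at H1, 2.39 to 2.63, and highest in the H1R18 library, 4.61.

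Of 30 other p97 cofactors, 28 were tested, and in each recovery condition calls went both ways. Shares in brackets are those of the whole tested set, first higher and then lower. At H1 1 was higher and none lower (3.43%, 1.77%). At H1R1 4 rose and 4 fell (10.7%, 9.53%), and at H1R6 1 rose and 1 fell (3%, 4.03%). In the H1R18 library 5 rose and 2 fell (4.58%, 6.43%). Median log2 fold changes of these cofactors were 0.01, 0.05, 0.03 and -0.03 over the 4 times. ZFAND2A, a heat- and arsenite-induced AN1 zinc finger protein that binds the proteasome, was higher by 3.57 at H1 (adjusted p = 1.36e-14), 3.56 at H1R1 and 0.79 at H1R6. At H1R1 the ER rhomboid protease gene RHBDD1 was lower (-0.84, SE 0.15, adjusted p = 0.000117) and VCPIP1, a deubiquitinase gene of p97-dependent Golgi reassembly, was higher (0.56, SE 0.11, adjusted p = 0.000549). HDAC6, the ubiquitin-binding deacetylase of the aggresome pathway, was lower at H1R6 (-0.46, adjusted p = 0.0222). TEX264, an ER-phagy receptor gene, was lower at H1R18 (-0.97, SE 0.22, adjusted p = 0.00295) and at -0.50 at H1R6 (adjusted p = 0.0543). ZFAND2B and ANKZF1, whose products act at the proteasome and on stalled ribosomes, were higher at H1R18 (1.02 and 0.71, adjusted p = 0.00379 and 0.00621). At H1, ZFAND1 (-0.43) and SELENOS (0.47) did not pass (adjusted p = 0.0718 and 0.0733).

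Among other ubiquilins and shuttle factors, 8 were tested (BAG6, with at most 10 counts in a library, was not). The number higher was 1 at H1 and 2 in each later condition, and 1 was lower in the H1R18 library. Of all genes tested, 3.43% (H1), 10.7% (H1R1), 3% (H1R6) and 4.58% (H1R18) were higher, and 6.43% were lower at H1R18. SGTA, a co-chaperone that sorts tail-anchored and mislocalised membrane proteins, was higher at each time, by 0.30, 0.67, 0.53 and 0.59 (adjusted p = 0.034, 7.7e-07, 9.4e-05 and 0.000214). DDI2, a ubiquitin-directed protease gene, was higher by 0.37 at H1R1 and by 0.37 at H1R6 (adjusted p = 0.00326 and 0.00795). UBL4A, a partner of BAG6, was lower at H1R18 (-0.57, adjusted p = 0.00672) and stood at -0.29 at H1R1 (adjusted p = 0.0553), and NUB1, a regulator of NEDD8, was higher at H1R18 (0.57, adjusted p = 0.0187). UBQLN4 (0.26) did not pass at H1 (adjusted p = 0.195), and GET4 (0.90 at H1 and 0.95 at H1R6) did not pass either (adjusted p = 0.199 and 0.147).

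The 18 genes of ER-associated degradation, in which p97 extracts misfolded proteins from the ER, were all tested. At H1 1 was higher, where 3.43% of all genes tested were. At H1R1 4 rose and 1 fell, beside 10.7% of all genes higher and 9.53% lower. At H1R6 2 rose and 4 fell (3% and 4.03% of all genes). In the H1R18 library 2 rose and none fell (4.58% and 6.43%). HERPUD1, a scaffold of the ER ubiquitin ligase complex, stood at -0.28 at H1 (adjusted p = 0.0713), was higher by 0.68 at H1R1 (SE 0.09, adjusted p = 9.98e-07), lower at H1R6 (-1.12, SE 0.10, adjusted p = 1.05e-09) and higher by 0.95 at H1R18 (SE 0.11, adjusted p = 1.4e-07). EDEM1, which marks misfolded glycoproteins, was lower at H1R1 (-0.74, adjusted p = 1.9e-06), and the ubiquitin-conjugating enzyme gene UBE2J2 was higher at H1R1 (0.72, adjusted p = 0.000226) and at H1R6 (0.48, adjusted p = 0.0264). EDEM3 was higher at H1 (0.32, adjusted p = 0.0456), the ubiquitin ligase gene MARCHF6 lower at H1R6 (-0.28, adjusted p = 0.0257) and the ubiquitin-conjugating enzyme gene UBE2G2 higher at H1R18 (0.35, adjusted p = 0.03). UBE2G2 stood at -0.21 at H1 (adjusted p = 0.199), and TMUB2 at 0.48 at H1R18 (adjusted p = 0.216).

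Ribosome-associated quality control hands nascent chains to p97, and all 9 of its listed genes were tested. The number higher was 1 at H1, 3 at H1R1 and 1 in the H1R18 library, where 3.43%, 10.7% and 4.58% of all genes tested were. Of the 5625 genes at an average log2 CPM of 5.5 or more, 5.72%, 24.6% and 9.35% were higher. The listed genes were not matched to that level. At H1R6 edgeR called 0 of them, where 3% of all genes tested were called higher and 4.03% lower. At unadjusted p under 0.05, 1 was lower there, and the share of all genes lower at that threshold was not computed. LTN1, the ubiquitin ligase of stalled chains, was higher by 0.45 at H1 (adjusted p = 0.0343) and by 0.89 at H1R1 (SE 0.13, adjusted p = 3.57e-06) and stood at 0.18 at H1R6 (adjusted p = 0.491). PELO and HBS1L, which split stalled ribosomes, were higher at H1R1 (0.70 and 0.32, adjusted p = 0.00216 and 0.00304), and HBS1L also at H1R18 (0.29, adjusted p = 0.0467). NEMF (-0.39) and PELO (-0.29) did not pass at H1 (adjusted p = 0.108 and 0.411), nor did ASCC3 (-0.21) and TCF25 (-0.17) at H1R6 (adjusted p = 0.194 and 0.381), nor ASCC3 (-0.25) and GIGYF2 (0.17) at H1R18 (adjusted p = 0.193 and 0.359). Beside these lists the 10 genes are described by their counts, and no difference between lists was tested. Calls are more frequent among well-expressed genes, so the shares of all genes tested can be too low a background for the lists.

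**Figure D5:**
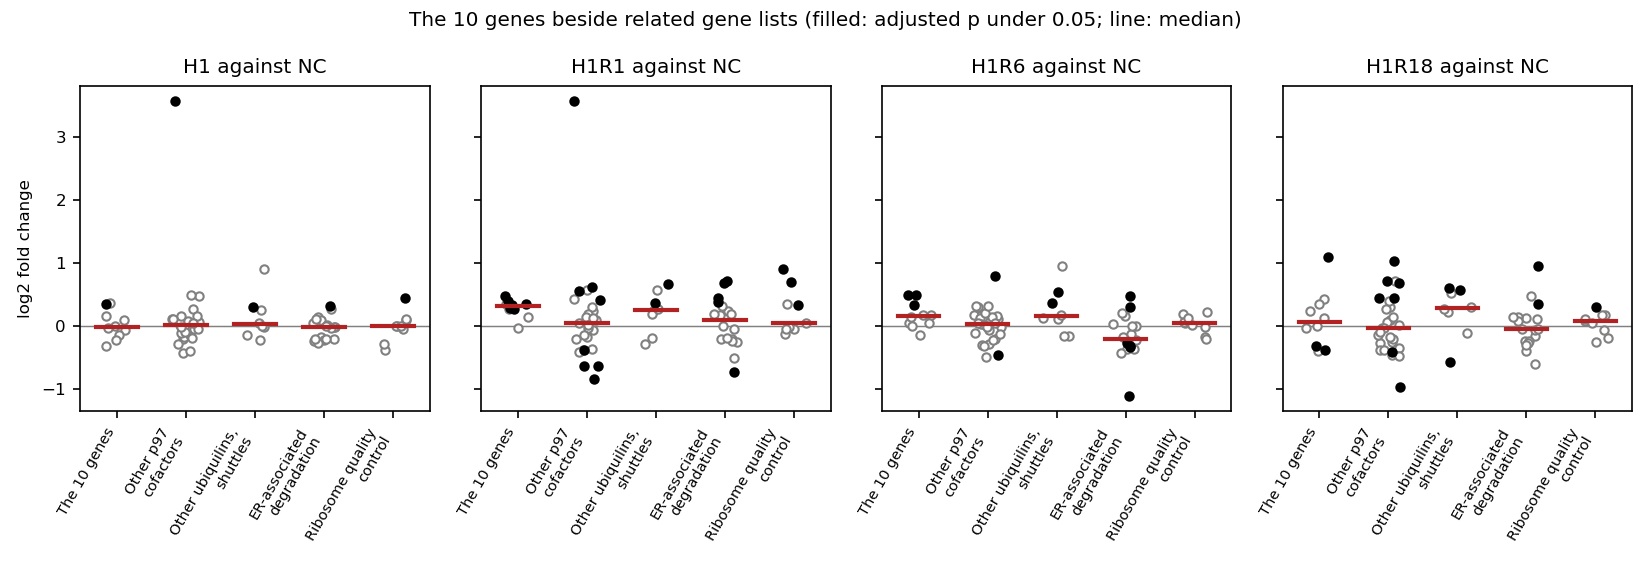
Log2 fold change against NC (vertical axes, shared) of the 10 genes and of the 4 related lists (horizontal axes) at each time (panels), with each tested gene as a dot, filled where it passed the test, and the list median as a line. The highest dot at H1 and H1R1 is ZFAND2A, at 3.57 and 3.56, and the median of the 10 genes is 0.31 at H1R1.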

How the data were processed

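RNA-seq of 9 HEK293T libraries in 5 conditions was analysed, grouped by the sample labels. Per the file headers and labels, the authors trimmed reads with cutadapt 4.1, aligned them with HISAT2 2.2.1 to GRCh38 and deposited raw read counts per gene from featureCounts 2.0.2 with Ensembl 104, from rRNA-depleted total RNA, without strand, with each read of a pair counted and with reads on several genes or places left out. The labels also name FastQC 0.11.8 and DESeq2 1.38.3. No aligned reads were used here.

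Symbols were matched to 60463 of 60664 identifiers (99.7%). Low genes were removed by filterByExpr (minimum count 10, minimum total 15), and the rest were fitted by the quasi-likelihood model of edgeR 4.0.16 (R 4.3.3) with TMM factors and 1 coefficient per condition. There were 4 comparisons with NC and 3 between successive times. As that model prints no SE, the log2 fold change over the root of its F statistic was used. The common biological coefficient of variation was 0.0905. RPKM used the merged exon length in the table. Libraries of a condition differed by more than counting error (chi-square per degree of freedom of read pairs 1.72 to 2.35), so none was counted as a repeat of another. Read pairs counted at both ends are not independent, so counting precision is lower than the counts imply.

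Promoters came from RefSeq (GRCh38.p14), and shared 50-base stretches from GENCODE 29 transcripts. The genes and lists were chosen with earlier results of these data known, so they are no independent support. All 10 genes are named in every comparison, and of each list the 3 tested genes with the smallest adjusted p per comparison with NC. Also tried were scaling by upper quartile, RLE or library size alone, DESeq2 1.42.0, leaving the filter out or asking for 10 counts in every library, the compared conditions alone, the replicate number as a block, counts divided by 2 and each library left out. On data simulated for H1R1 against NC (20070 genes, 50 changed at each size), the test found 7 genes changed by 0.3 on the log2 scale, 32 changed by 0.5 and 50 changed by 1, and 5 unchanged genes were called. Figures were drawn with matplotlib 3.10.9.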

Additional observations from a re-analysis of the deposited data

Results flagged for a closer look

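Between successive times, 15 differences among the 10 genes passed edgeR's quasi-likelihood test (adjusted p under 0.05). They are differences between the effects of 2 time points against the same NC libraries. Of all genes tested, 6.35% were higher and 5.08% lower from H1 to H1R1. From H1R1 to H1R6 the shares were 6.43% and 8.93%, and from H1R6 to H1R18 6.28% and 7.65%. Among the 5625 genes at the same level they were 17.1% and 8.21%, 7.95% and 22.1%, and 12.7% and 18.2%. Only the H1R6 to H1R18 differences of VCP, FAF2 and YOD1 held in every alternative tried, and rest on the single H1R18 library. From H1 to H1R1 the log2 differences were 0.32 for NPLOC4, 0.49 for NSFL1C, 0.30 for FAF2, 0.37 for PLAA and 0.43 for YOD1. From H1R1 to H1R6 they were -0.30 for VCP, -0.48 for UFD1, -0.40 for FAF1 and 0.34 for PLAA. From H1R6 to the single H1R18 library they were -0.37 for VCP, 0.43 for UFD1, -0.56 for FAF2, -0.52 for PLAA, 0.60 for YOD1 and -0.46 for UBQLN2.

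UFD1 fell from H1R1 to H1R6 while NPLOC4 stood at 0.08 (adjusted p = 0.611) over the same step, and VCP and FAF2 fell from H1R6 to H1R18 while YOD1 rose. Differences between these genes' courses were not tested. Conditions of 2 libraries or 1 are too small for a test of single outlying libraries.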

How the results depend on the processing

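Other scaling, filters and tools moved the number of genes called by over 1.5 times in few cases. From H1 to H1R1 the count of 5 became 3 with library size only and 3 with DESeq2, at H1 it became 2 (from 1, with UFD1) with at least 10 counts in every library, and at H1R18 against NC it became 1 (from 3) with the compared conditions alone. Leaving out 1 library gave counts of 0 to 1 at H1, 3 to 7 at H1R1, 1 to 3 at H1R6, 2 to 4 at H1R18, 0 to 6 from H1 to H1R1, 1 to 4 from H1R1 to H1R6 and 4 to 6 from H1R6 to H1R18. Over all genes the calls ranged from 493 to 1237 at H1, 2297 to 4378 at H1R1, 581 to 1657 at H1R6, 1387 to 2432 at H1R18, 959 to 2719 from H1 to H1R1, 1648 to 3526 from H1R1 to H1R6 and 1769 to 3613 from H1R6 to H1R18, where the numbers of the report's analysis were 1100, 4269, 1486, 2327, 2417, 3248 and 2946.

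The values that changed sign were at most 0.15 in size and had not passed the test (adjusted p of 0.505 or more). UFD1 at H1R6 became 0.0096 with RLE, 0.0041 with upper-quartile, 0.026 with library-size scaling, 0.010 with DESeq2, 0.029 with no filter, 0.021 with at least 10 counts in every library, 0.0040 with the compared conditions alone and 0.0067 with counts divided by 2. VCP from H1 to H1R1 became -0.025 with upper-quartile scaling, -0.048 with library size only, -0.016 with no filter, -0.0095 with at least 10 counts, -0.0018 with the compared conditions alone and -0.00088 with counts divided by 2. FAF2 at H1 became 0.012 with no filter and 0.0032 with at least 10 counts, UBQLN1 at H1R18 -0.011 with no filter, and PLAA at H1R18 0.0025 with at least 10 counts. With a library left out, signs changed within -0.020 to 0.34 for FAF1 at H1, -0.30 to 0.060 at H1R6 and -0.028 to 0.33 at H1R18, -0.025 to 0.020 for FAF2, -0.17 to 0.052 for NPLOC4, -0.29 to 0.0068 for NSFL1C and -0.10 to 0.046 for YOD1 at H1, -0.017 to 0.064 for UBQLN1 at H1R18, -0.13 to 0.091 for UBQLN2 at H1R1, -0.036 to 0.19 at H1R6 and -0.013 to 0.17 from H1R1 to H1R6, -0.091 to 0.12 for UFD1 at H1R6, and -0.048 to 0.052 for VCP from H1 to H1R1. The cause was not tested. Counts of the 4 related lists were compared for each combination of list, comparison and setting. They moved by over 1.5 times, or to or from none, in 81 combinations and did not in 415. Over the 10 genes, 70 combinations of gene, comparison and setting lost a call and 16 gained one.

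Libraries with the same replicate number showed little shared deviation, with correlations of -0.033 to 0.039 over 11586 genes. The labels do not state whether same-numbered libraries were prepared together. With the replicate number as a block, counts were 1, 6, 3, 3 at H1, H1R1, H1R6 and H1R18 against NC and 5, 4 and 4 in the 3 successive comparisons. In the simulation small changes were often missed: of 50 genes at a log2 fold change of 0.3, 7 were called. Only 200 genes were changed in it, whereas 4269 of 21139 were called at H1R1. The adjusted threshold was therefore harder to pass in the simulation, and it does not give the share missed in the data. A gene that did not pass may still have changed.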
